A study of Homo sapiens with 3 samples.

Results

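The 9 genes described here are inhibitors of the transcription factor NF-kappa-B and feedback genes that it switches on: NFKBIA, NFKBIB, NFKBIE, NFKBIZ, BCL3, TNFAIP3, TNIP1, TNIP2 and TNFAIP2. They were chosen by gene name, and all 9 were found among the 60605 genes of the deposited table. The cells were RCC4, which come from a human clear cell renal carcinoma, have no functional VHL protein and here carried Cas9 from a lentiviral vector; their poly(A) RNA was sequenced. There was 1 group of 3 libraries, labelled as biological replicates and each grown in 3 flasks. All of these cells had received IFN-gamma at 1000 U/mL and TNF at 25 ng/mL for 24 h. Cells without cytokines were not analysed here. The results are therefore the levels reached under treatment and their ratios, with no test between groups and no statement on induction.

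In resting cells NF-kappa-B dimers are held in the cytoplasm by the IkB proteins, which NFKBIA, NFKBIB and NFKBIE encode. TNF leads the IKK kinase complex to mark these proteins for destruction, and the freed dimers enter the nucleus, where they transcribe NFKBIA again and thereby rebuild their own inhibitor. NFKBIZ and BCL3 encode IkB-like proteins that stay in the nucleus and alter which targets are transcribed. TNFAIP3 encodes A20, a ubiquitin-editing enzyme that damps signalling at the TNF receptor, and TNIP1 and TNIP2 encode its binding partners ABIN-1 and ABIN-2. TNFAIP2 is a TNF-inducible gene whose product is known for shaping membrane protrusions, and it is not known as an inhibitor of NF-kappa-B.

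The promoters of these genes are shown first because kappa-B sites near the start are the textbook basis of this feedback. RefSeq (GRCh38.p14) windows, running from 250 bases before to 50 bases after an annotated start, were found for 8 of the 9 genes, in 11 windows, with no window used for NFKBIE. A kappa-B core, spelled GGGANTTTCC and searched on both strands, was present in 5 of the 11 windows, belonging to NFKBIA, NFKBIB, NFKBIZ, TNFAIP3 and TNIP1. Of all 35116 windows of the same length, 0.558% held this core. The broader kappa-B consensus, of which the core is a special case, was matched in 7 of the 11 windows and in 5.91% of all windows, and it added BCL3 to the genes with a match. Starts of the same gene are numbered by rising chromosome coordinate. TNIP1 is on the minus strand, so its second start is the more upstream one. The matches are printed below with 10 bases on each side, on the strand that reads GGG first, with the match in capitals.
NFKBIA, chr14:35404811-35404840, plus strand: gtcaggctcgGGGAATTTCCaagccagtca
NFKBIB second start, chr19:38899931-38899960, plus strand: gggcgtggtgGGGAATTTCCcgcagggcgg
NFKBIZ first start, chr3:101827757-101827786, plus strand: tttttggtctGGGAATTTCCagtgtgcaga
NFKBIZ second start, chr3:101849265-101849294, plus strand: gcgcgctgtcGGGGTTTCCCggtgaagggc
BCL3, chr19:44748700-44748729, minus strand: gccgggcgccGGGACTTCCCctgcagccgg
TNFAIP3, chr6:137867182-137867211, minus strand: ggatttccacGGGACTTTCCaaagtcacgt
TNFAIP3, chr6:137867194-137867223, minus strand: ttgtaggcccGGGGATTTCCacgggacttt
TNIP1 second start, chr5:151081057-151081086, minus strand: ccagtctccgGGGACTTTCCcaggggtggg

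NFKBIA, NFKBIB and NFKBIZ carried the same 10 bases as their core, while TNFAIP3 and TNIP1 shared another version of it. In NFKBIB the core was also matched by the consensus on the opposite strand, shifted by 1 base. The position of the match differed among the genes: -81 to -72 in NFKBIA, -67 to -58 and -55 to -46 in TNFAIP3, -42 to -33 in TNIP1 and -28 to -19 in NFKBIB, counted from the start site of each window. The core of NFKBIZ lay farther away, at -223 to -214, and the match of BCL3 lay just inside the transcript, at 3 to 12. The windows of NFKBIA and TNFAIP3 are printed whole, on the strand of the gene, because they show 1 match and a close pair of matches in genes of the same feedback; matches to the consensus are in capitals.
NFKBIA, chr14:35404700-35404999, minus strand: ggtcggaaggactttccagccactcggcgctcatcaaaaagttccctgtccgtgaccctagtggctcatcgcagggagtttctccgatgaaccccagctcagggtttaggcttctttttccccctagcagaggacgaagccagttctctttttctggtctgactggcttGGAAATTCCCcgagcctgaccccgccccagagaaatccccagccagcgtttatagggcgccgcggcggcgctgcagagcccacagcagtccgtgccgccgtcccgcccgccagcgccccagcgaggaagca
TNFAIP3, chr6:137867009-137867308, plus strand: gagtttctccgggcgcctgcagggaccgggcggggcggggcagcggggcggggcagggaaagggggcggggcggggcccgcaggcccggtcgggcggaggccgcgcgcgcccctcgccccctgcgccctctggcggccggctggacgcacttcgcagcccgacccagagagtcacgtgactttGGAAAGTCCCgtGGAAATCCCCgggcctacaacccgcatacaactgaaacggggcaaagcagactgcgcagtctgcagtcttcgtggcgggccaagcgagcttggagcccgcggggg

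TNIP2 and TNFAIP2 had no match to either kappa-B motif in their windows. Nor had the first start of NFKBIB or the first start of TNIP1, which is the more downstream one of that gene. The GAS motif, spelled TTCNNNGAA and bound by STAT dimers after IFN-gamma, was present in 1 of the 11 windows, that of TNIP2 at -34 to -26, against 7.66% of all windows. These are matches of letters and not measured binding, and a window without a match says nothing of sites elsewhere.

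**Figure D1:**
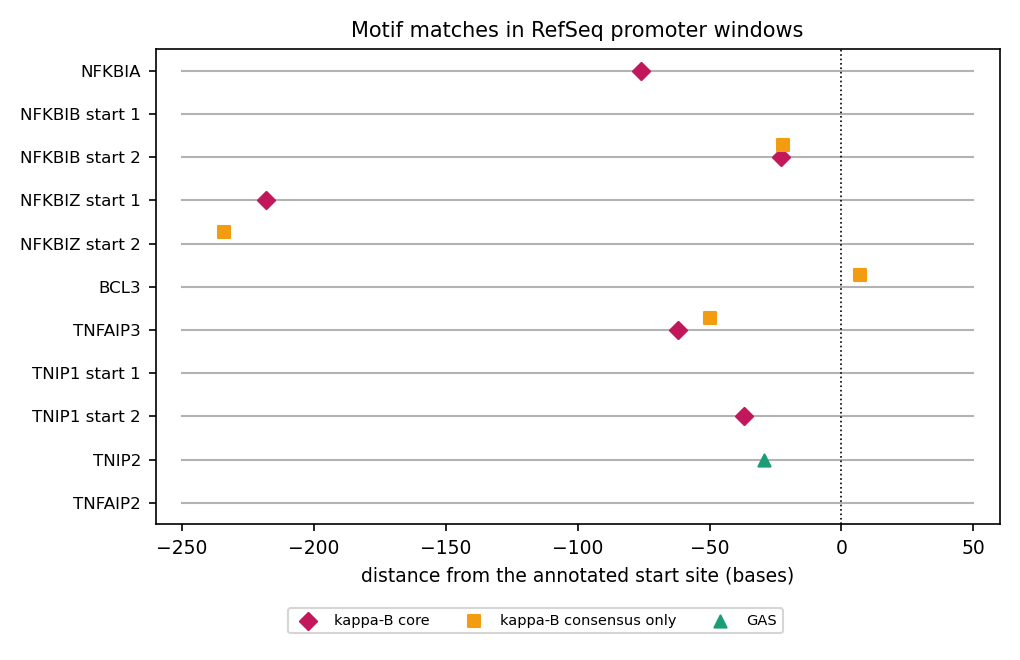
Motif matches in the 11 RefSeq promoter windows of 8 genes, by distance in bases from the annotated start site. Starts of the same gene are numbered by rising chromosome coordinate. Diamonds mark the kappa-B core, squares a match to the kappa-B consensus only, and the triangle a GAS match; most kappa-B matches lie within 100 bases of a start.

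All 9 genes were expressed. Each had at least 1 CPM, a read count scaled by TMM to a common library total, in every library, a level reached by 51.4% of protein-coding genes and 18.6% of all genes. Gene levels are in RPKM, meaning CPM divided by the kilobases of exon. The median over the 9 genes was 41.6 RPKM, against 6.09 RPKM over the 10201 detected protein-coding genes. Together they took 0.201% ± 0.00719 of all reads (SD, n = 3), and the lowest number of reads of any of them in a library was 1611. If each read pair was counted as 2 reads, counting error alone is at most 3.52% for any of these values, which is smaller than the replicate spread of every gene.

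Little of their exon length lay inside other annotated genes, where reads may be lost in this table. NFKBIA, NFKBIE, NFKBIZ, TNIP1, TNIP2 and TNFAIP2 had no such overlap in GENCODE 29. The microRNA gene MIR8085 covered 2.00% of BCL3, and SIRT2 on the opposite strand covered 1.72% of NFKBIB. For TNFAIP3 the antisense gene AL357060.1 covered 10.1% of the exons at the start of the gene, and it had 31, 35 and 51 reads in replicates 1, 2 and 3, against 13823, 11934 and 15016 for TNFAIP3. SIRT2 had 2213, 1659 and 2045 reads, and MIR8085 was listed at 0. The strand setting of the count is not given, so reads of such a pair cannot be told apart.

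Among the cytoplasmic inhibitors, NFKBIA was the most abundant and made up about as much as the other two together. NFKBIA (ENSG00000100906.11, chr14:35401511-35404749, minus strand) encodes IkB-alpha, which NF-kappa-B resynthesises within a response. Its level was 73.7, 55.5 and 54.5 RPKM in replicates 1, 2 and 3, with a mean of 61.2 ± 10.8 RPKM (SD, n = 3). NFKBIB (ENSG00000104825.17, chr19:38899700-38908893, plus strand) encodes IkB-beta and stood at 38.4, 30.8 and 31.1 RPKM, a mean of 33.4 ± 4.31 RPKM. NFKBIE (ENSG00000146232.17, chr6:44258166-44265788, minus strand) encodes IkB-epsilon and stood at 33.8, 24.7 and 26.5 RPKM, a mean of 28.3 ± 4.82 RPKM. The values of NFKBIA lay above those of NFKBIB and NFKBIE without overlap, whereas the ranges of NFKBIB and NFKBIE overlapped between libraries.

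Replicate 1 was the highest library for each of these inhibitors with TMM and with total reads as the scaling. After GC correction NFKBIB and NFKBIE were not highest in it, and NFKBIB was lowest. The proportions of the inhibitors, without GC correction, differed little between libraries. NFKBIA took 50.5%, 50.0% and 48.6% of the summed RPKM of NFKBIA, NFKBIB and NFKBIE in replicates 1, 2 and 3. NFKBIB took 26.3%, 27.8% and 27.7%, and NFKBIE 23.1%, 22.2% and 23.7%. Shares within the same library remove the part of the spread that the inhibitors have in common.

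Ratios within a library were used to order the genes, since both genes then share the library. A difference between libraries that varies with GC content need not cancel in such a ratio. A log2 ratio counted as past the replicate spread if its sign was shared by the 3 libraries and its mean was larger than 2 SD. This is a description: with 3 libraries an exact two-sided test could not go below a p of 0.25, and 78.3% of all pairs of detected protein-coding genes met the rule. Of 15 pairs 13 met it. NFKBIA exceeded NFKBIB 1.82-fold (log2 0.87 ± 0.07, SD, n = 3) and NFKBIE 2.16-fold (log2 1.11 ± 0.07). NFKBIB exceeded NFKBIE in each library, at log2 0.24 ± 0.07. The sizes of these ratios depended on the gene length used. With the length of the principal transcript in place of the union of exons, the log2 ratio of NFKBIB to NFKBIE was 1.25 and that of NFKBIA to NFKBIE 1.72, while that of NFKBIA to NFKBIB was 0.47. Without any length scaling NFKBIB and NFKBIE differed by 0.09, which was not past the spread.

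Compared with RELA, the main activating subunit that these inhibitors hold, NFKBIA was the only one of the inhibitors at a higher level with lengths taken from the union of exons. The log2 ratio of NFKBIA to RELA was 0.23, 0.25 and 0.37 in replicates 1, 2 and 3, a mean of 0.28 ± 0.07. This order turned with the gene length used: with the length of the principal transcript the mean was -0.13 and not past the spread, and without any length scaling it was -0.92. NFKBIB and NFKBIE lay below RELA, at log2 -0.58 ± 0.13 and -0.83 ± 0.14. Without length scaling these ratios were -1.81 and -1.91, and with the principal transcript that of NFKBIE was -1.84. RELA itself stood at 62.7, 46.6 and 42.2 RPKM. The summed RPKM of NFKBIA, NFKBIB and NFKBIE was 146, 111 and 112, and that of the subunit genes RELA, RELB, REL, NFKB1 and NFKB2 was 213, 159 and 148 (log2 ratio -0.49 ± 0.08). These sums rest on union exon lengths, and their ratio was not run with any other length.

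**Figure D2:**
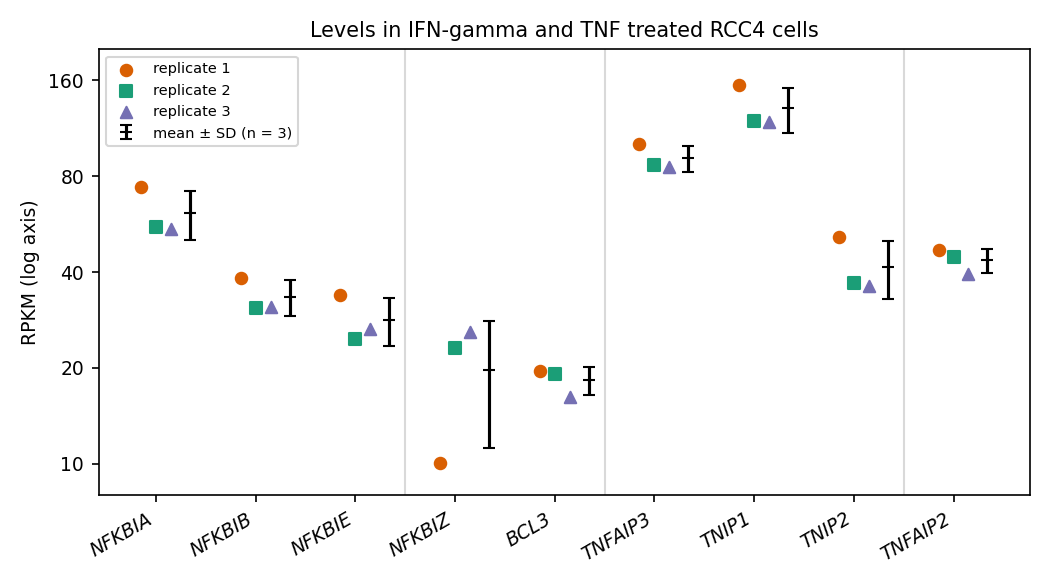
RPKM of the 9 genes on a log axis in replicates 1, 2 and 3, with the mean and SD of 3 libraries beside them; vertical lines separate cytoplasmic inhibitors, nuclear IkB-like genes, the A20 group and TNFAIP2. Replicate 1 is the highest point for every gene except NFKBIZ, where it is the lowest at 10.1 RPKM.

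With union exon lengths the nuclear IkB-like genes had the lowest mean levels of the 9, and NFKBIZ had the largest spread over the 3 libraries. With principal transcript lengths NFKBIE, at 4.82 on the log2 scale, lay between BCL3 at 4.86 and NFKBIZ at 4.78. Without length scaling the mean of NFKBIZ, 116 CPM, lay above those of TNIP2, NFKBIB and NFKBIE, at 112, 77.7 and 73.1 CPM. BCL3 (ENSG00000069399.15, chr19:44747705-44760044, plus strand), a partner of the p50 and p52 subunits, stood at 19.6, 19.1 and 16.2 RPKM in replicates 1, 2 and 3, a mean of 18.3 ± 1.85 RPKM (SD, n = 3). NFKBIZ (ENSG00000144802.11, chr3:101827991-101861022, plus strand), which encodes IkB-zeta, a coactivator of secondary inflammatory genes, stood at 10.1, 23.1 and 26.0 RPKM, a mean of 19.7 ± 8.47 RPKM. Their order depended on the library: NFKBIZ was below BCL3 in replicate 1 (log2 -0.96) and above it in replicates 2 and 3 (log2 0.27 and 0.68), so the ratio was not past the spread. Without replicate 1 the SD of NFKBIZ on the log2 scale was 0.12, against 0.17 for BCL3. BCL3 was 3.09-fold below NFKB2, the gene of its partner p52 (log2 -1.63 ± 0.20).

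On levels in RPKM NFKBIA exceeded NFKBIZ in every library, but by very different amounts, with log2 ratios of 2.86, 1.26 and 1.07 in replicates 1, 2 and 3. The mean, 1.73 ± 0.98, did not exceed 2 SD. Without replicate 1 the mean was 1.17 and did, and after correction for GC content it was 1.73 and did as well. Without length scaling the mean was 0.42 and not past the spread. On that scale NFKBIA had 175, 132 and 129 CPM and NFKBIZ 59.3, 136 and 153 CPM in replicates 1, 2 and 3, so that NFKBIZ was the higher in replicates 2 and 3.

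TNIP1 and TNFAIP3 had the highest levels of the 9 genes. TNIP1 (ENSG00000145901.16, chr5:151029945-151093577, minus strand), whose product ABIN-1 binds ubiquitin chains and A20, led in every library at 155, 119 and 118 RPKM in replicates 1, 2 and 3, a mean of 130.5 ± 20.9 RPKM (SD, n = 3). It ranked 250 among the 10201 detected protein-coding genes, above 97.5% of them. TNFAIP3 (ENSG00000118503.15, chr6:137867188-137883312, plus strand) came next at 101, 87.0 and 85.5 RPKM, a mean of 91.1 ± 8.44 RPKM and rank 409. TNIP2 (ENSG00000168884.15, chr4:2741648-2756376, minus strand), the gene of ABIN-2, which also binds the NFKB1 precursor, stood lower at 51.5, 37.0 and 36.3 RPKM, a mean of 41.6 ± 8.57 RPKM.

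TNIP1 exceeded TNIP2 3.15-fold (log2 1.66 ± 0.06 on levels in RPKM). TNFAIP3 lay below TNIP1 in each library (log2 -0.51 ± 0.09) and above TNIP2 by 2.21-fold (log2 1.14 ± 0.15). With principal transcript lengths TNFAIP3 lay farther below TNIP1, at log2 -1.47, and TNIP1 exceeded TNIP2 by 2.27. Without length scaling TNFAIP3 exceeded TNIP2 by log2 2.06, and TNIP1 exceeded TNIP2 by 2.77. TNFAIP3 also lay above NFKBIA by 1.50-fold (log2 0.58 ± 0.11), an order that was not past the spread with principal transcript lengths (log2 0.07) and was wider without length scaling (log2 1.67). Against CYLD, a deubiquitinase that restrains the same pathway, TNFAIP3 was higher by 4.84, 4.38 and 4.14 on the log2 scale in replicates 1, 2 and 3. For CYLD 80.8% of the exons lie inside other genes, and counting only the exon length outside such genes the mean log2 ratio was 2.26 in place of 4.45. It was 2.70 with principal transcript lengths and 3.12 without length scaling.

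TNFAIP2 (ENSG00000185215.11, chr14:103123442-103137439, plus strand) stood at 46.8, 44.5 and 39.4 RPKM in replicates 1, 2 and 3, a mean of 43.6 ± 3.80 RPKM (SD, n = 3) and a coefficient of variation of 8.72%. That was below TNFAIP3 in each library (log2 -1.06 ± 0.08).

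**Figure D3:**
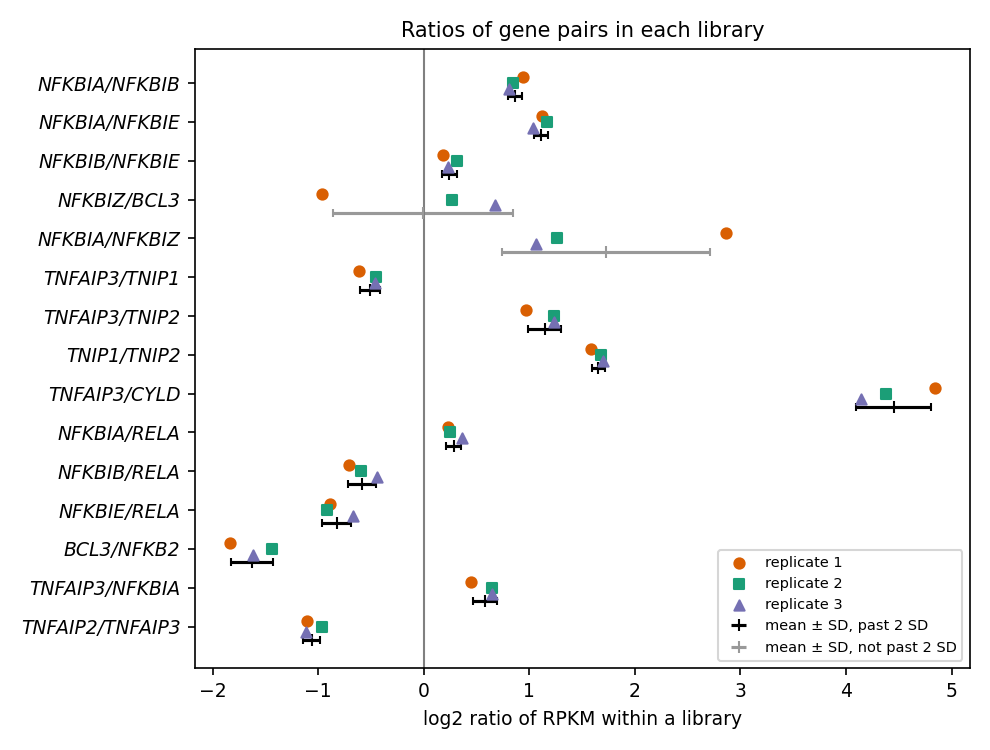
Log2 ratios of RPKM for the 15 gene pairs, with a point for each library and the mean and SD below it; grey bars mark the 2 pairs not past 2 SD. Both of these hold NFKBIZ, and in both replicate 1 stands apart.

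By mean RPKM over union exon lengths the order was TNIP1, TNFAIP3, NFKBIA, TNFAIP2, TNIP2, NFKBIB, NFKBIE, NFKBIZ and BCL3. This order was set by the same levels that are compared here, so the count of neighbours is only a description. Of the 8 pairs of neighbours, 5 differed past the replicate spread, as did 78.3% of all pairs of detected protein-coding genes. TNFAIP2 and TNIP2 did not, with log2 differences of -0.14, 0.27 and 0.12 in replicates 1, 2 and 3. NFKBIE and NFKBIZ did not, at 1.74, 0.10 and 0.03, nor did NFKBIZ and BCL3. The order was the same in replicates 2 and 3, and in replicate 1 it differed only by swaps within the pairs TNIP2 with TNFAIP2 and BCL3 with NFKBIZ. With principal transcript lengths the order was TNIP1, TNFAIP3, NFKBIA, NFKBIB, TNIP2, TNFAIP2, BCL3, NFKBIE and NFKBIZ. Without length scaling, by mean CPM, it was TNIP1, TNFAIP3, TNFAIP2, NFKBIA, NFKBIZ, TNIP2, NFKBIB, NFKBIE and BCL3. The detected protein-coding genes closest in level to TNIP1 over the 3 libraries, by Euclidean distance of log2 RPKM, were RPLP1, UBB and ANXA2, at distances of 0.04, 0.05 and 0.06. Those closest to BCL3 were PRAG1, SEZ6L2 and PRKD2, at 0.09, 0.10 and 0.13.

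Replicate 1 stood apart from the other libraries along transcript GC content, and of the 9 genes NFKBIZ was low in it. In the whole table, the log2 level in replicate 1, less the average of replicates 2 and 3, had a median of -1.41 in the lowest of 20 GC bins of detected protein-coding genes and 0.39 in the highest. With TMM scaling 8 of the 9 genes were highest in replicate 1, as were 50.1% of detected protein-coding genes. With total reads 6 were, against 38.1% of those genes, since BCL3 and TNFAIP2 were then highest in replicate 2. After GC correction 4 were, against 48.3%. With TMM the log2 differences of these 8 genes ran from 0.16 for BCL3 to 0.49 for TNIP2, and they have GC contents between 50.0% (TNFAIP3) and 65.9% (BCL3). The median over all 9 genes was 0.31, against 0.06 over detected protein-coding genes, a value that was -0.09 with total reads. Of the 9 genes 4 lay within the quartiles of their GC bin, NFKBIA and TNIP2 lay above them, and BCL3, TNFAIP2 and NFKBIZ lay below them.

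With TMM scaling NFKBIZ alone of the 9 was lowest in replicate 1, as were 42.4% of detected protein-coding genes. After GC correction 4 of the 9 were lowest in it, namely NFKBIB, NFKBIZ, BCL3 and TNFAIP2, against 38.6% of those genes. NFKBIZ has the lowest GC content of the 9 genes at 46.2%. It had 1611, 3696 and 5329 reads in replicates 1, 2 and 3, and its log2 difference of replicate 1 from the others was -1.27, a level 0.410 times theirs. It was the only one of the 9 more than 2-fold lower in replicate 1, where 12.1% of detected protein-coding genes were. The 510 genes of its GC bin had a median of -0.09, and 3.14% of them lay below NFKBIZ. After correction of each library for its GC trend the log2 difference of NFKBIZ was still -1.11, while those of the other 8 genes lay between -0.21 and 0.15. Replicates 2 and 3 differed by 0.17 for NFKBIZ. What sets NFKBIZ apart in this library was not tested.

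**Figure D4:**
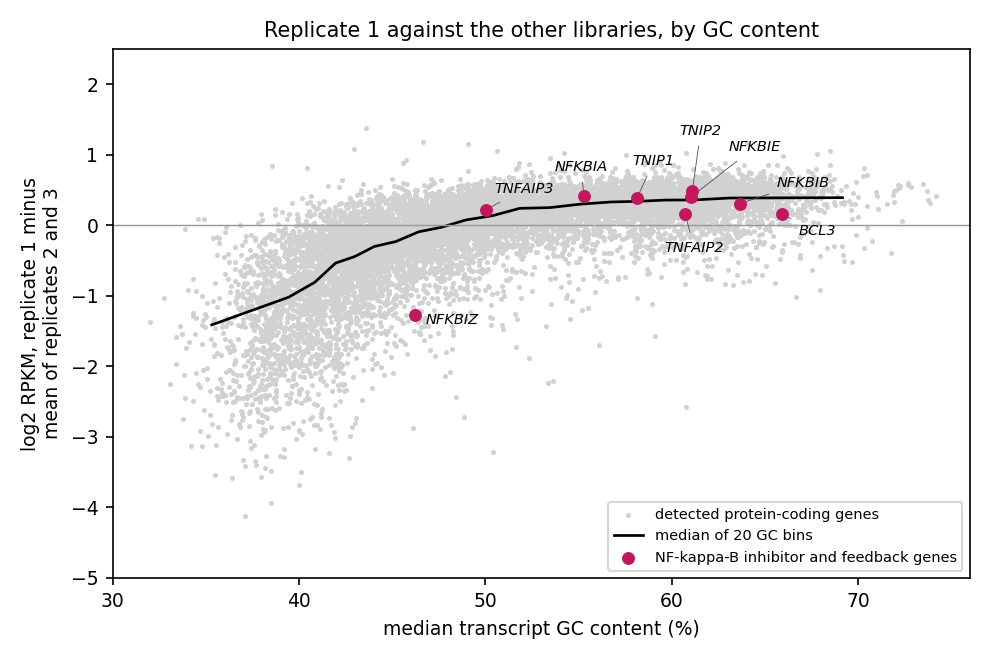
Log2 RPKM in replicate 1 minus the mean of replicates 2 and 3, against the median GC content of each gene's transcripts; grey points are detected protein-coding genes, the line joins the medians of 20 GC bins, and red points are the 9 genes. NFKBIZ lies at -1.27, below the line, and the other 8 lie between 0.16 and 0.49, some above the line and some below it.

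The machinery on which these genes act was also present. Of 8 genes for NF-kappa-B subunits and the IKK complex, all 8 were detected, with a median of 12.8 RPKM against 41.6 RPKM for the 9 inhibitor and feedback genes. Levels and medians of this list and of the lists below use union exon lengths. The medians of these lists were not run with any other length, so how far they depend on it was not tested. The highest were NFKB2 at 57.4, RELA at 50.5 and RELB at 44.9 RPKM, and the lowest were REL at 0.413, CHUK at 3.67 and IKBKB at 4.01 RPKM. For REL 43.3% of the exons lie inside other genes. CHUK, which encodes the kinase IKK-alpha, and REL were more than 2-fold lower in replicate 1, at log2 -1.09 and -1.32. By GC content they fall in the lowest bins, whose medians were -1.41 and -1.02, and the bin median of NFKBIZ was -0.09. Whether GC content accounts for any of these differences was not tested.

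Of 15 other brakes on the pathway 13 were detected, and the median was 4.90 RPKM. ZC3H12A, an RNase that degrades inflammatory mRNAs including that of NFKBIZ, was the highest at 30.9, 31.4 and 32.4 RPKM in replicates 1, 2 and 3. RNF11 and ITCH, which work in a complex with A20, stood at 23.7 and 9.38 RPKM. CYLD stood at 4.09 RPKM, with the overlap given above. TNIP3, the third ABIN gene, had 0, 0 and 2 reads, while PDLIM2 had 17, 14 and 17 and was 68.8% covered by other genes. NKIRAS1, a Ras-like protein that binds IkB-beta, was detected at 1.65 RPKM.

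Upstream of the inhibitors, 12 of 15 genes of TNF receptor signalling were detected, with a median of 19.5 RPKM. RBCK1, a subunit of the linear ubiquitin ligase, was the highest at 95.1 RPKM, followed by the receptor TNFRSF1A at 55.3 RPKM. BIRC2, a ubiquitin ligase at the receptor, averaged 36.7 RPKM and was low in replicate 1, at 10.4, 46.9 and 52.7 RPKM in replicates 1, 2 and 3. Its log2 difference was -2.25, in a GC bin with a median of -0.53. TRAF5 had 6, 4 and 0 reads and TNFRSF1B 0, 0 and 2. RNF31, the catalytic partner of RBCK1, was listed at 0, and 55.2% of its exons lie inside other genes. Genes that cells generally need, such as RPL15 and SDHA, were also listed at 0, and SDHA has no overlap with another gene, so a 0 here is given only as listed.

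Downstream, 14 of 19 textbook NF-kappa-B targets were detected, with a median of 13.4 RPKM. CSF1 at 164, the syndecan SDC4 at 156 and SOD2 at 141 RPKM were the highest, above TNIP1. VCAM1 had 2, 2 and 6 reads, CCL20 had 2, 2 and 8, and PTGS2 was listed at 0. Of 7 genes known to depend on IkB-zeta, several of them from work in mice, IL6 alone was detected, at 18.8, 21.5 and 23.5 RPKM in replicates 1, 2 and 3, with 41.0% of its exons inside other genes. CSF3 had 2, 0 and 6 reads, and LCN2, IL36G and S100A9 were listed at 0 in each library. These lists are described by counts and medians, with 51.4% of all protein-coding genes detected by the same rule.

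**Figure D5:**
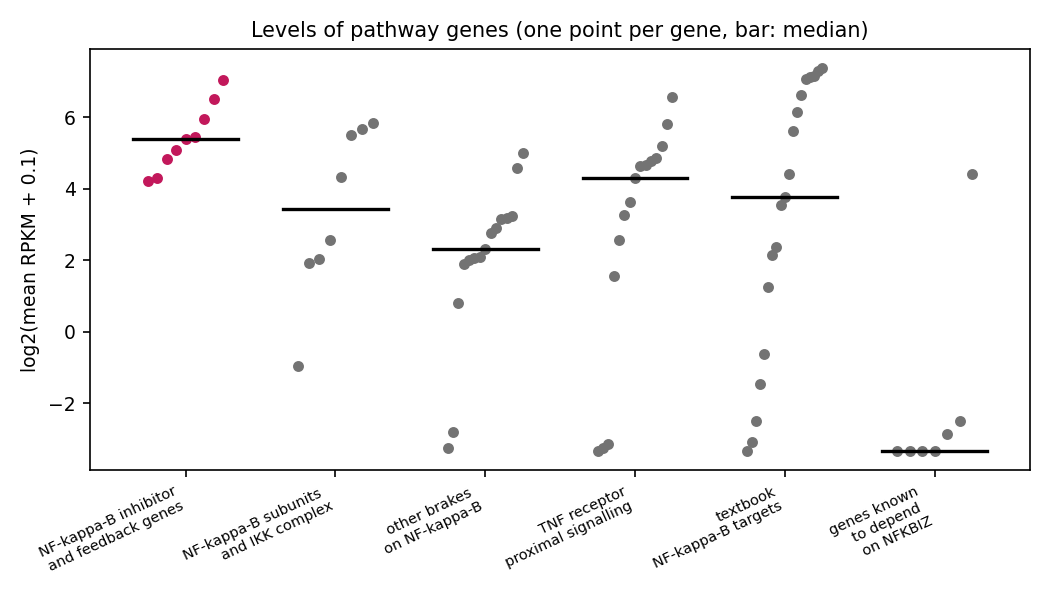
Mean level of each gene as log2(mean RPKM + 0.1) for the 9 inhibitor and feedback genes (red) and 5 lists of pathway genes (grey), with the median of each list as a bar. All levels use union exon lengths. The 9 genes lie between 18.3 and 130.5 RPKM, and each of the other lists has members below that range.

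The libraries held 29199806, 26264283 and 33458691 reads. Replicates 2 and 3 were close to each other, with a common biological coefficient of variation of 0.0727 in edgeR, against 0.285 over all 3 libraries. Of 10 markers of renal carcinoma epithelium 9 were detected, led by KRT8, with a summed level between 409 and 563 RPKM in the 3 libraries. The highest means were KRT8 at 147, NDUFA4L2 at 123, KRT18 at 74.8, KRT19 at 54.1 and CA9 at 50.5 RPKM. The others were low, with PAX2 at 7.77, CDH16 at 1.52, PAX8 at 1.46 and LHX1 at 0.310 RPKM. For PAX8 95.7% of the exons lie inside other genes. NNMT, wholly inside other genes, was listed at 0. Of 5 leukocyte markers 1 was detected, CSF1R at 0.820 RPKM, while PTPRC and CD3E were listed at 0. Of 4 endothelial markers none was detected, and of 5 fibroblast markers only COL1A1 was, at 0.754 RPKM.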

How the data were processed

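Per the submitters' processing notes, reads were handled with FastQC and cutadapt 1.18, build hg38 was used, and HISAT2 2.1.0 and featureCounts 2.0.0 are listed; the sources used here give neither the annotation release nor the strand setting or other options. The authors deposited a scaled signal: the values show that each library's gene counts were divided by its own size factor. In each library 100% of nonzero values were whole multiples of 1 read within 0.01 of a read, and these whole reads were used. Genes with 2 reads outnumbered those with 1 read (1621 against 269 in replicate 1), as when both mates are counted.

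Identifiers were matched to GENCODE 29 (96.3%, holding 99.9% of the reads). Reads were scaled by TMM in edgeR 4.0.16 (R 4.3.3) and divided by the union of exons, and a pseudocount of 0.1 RPKM was added before log2. GC trends were fitted by lowess with a span of 0.3. Simulated counts with planted shifts in replicate 1, with and without a planted GC trend, were run through the scaling and the GC correction. Their spread was close to that of replicates 2 and 3 and below that over all 3 libraries. The ratio rule, the recovery of whole reads and the motif search were not simulated. Alternatives included size factors from DESeq2 1.42.0, total reads, other lengths, pseudocounts and thresholds, GC correction, and leaving out each library. The genes, lists and pairs were chosen with earlier results of these data known. All 9 genes, both genes of each pair, the 3 highest and up to 3 lowest of each list, genes overlapping the 9 and the 3 nearest in level to the highest and the lowest gene were named by rule. The remaining marker genes, RPL15 and SDHA were named after their values were seen. Marker genes that the text does not name are not reported here.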

Additional observations from a re-analysis of the deposited data

How the results depend on the processing

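No paired analysis was possible because the labels give 1 group of 3 libraries. The 9 genes stayed detected under every scaling, threshold and left-out library, including 10 CPM in every library. Without length scaling, the log2 ratio of NFKBIB to NFKBIE was 0.093 and no longer past the replicate spread, and that of NFKBIA to RELA was -0.92, in the opposite direction and past it. With the length of the APPRIS principal transcript, an alternative chosen after seeing the data, the ratio of NFKBIA to RELA was -0.13 and that of TNFAIP3 to NFKBIA was 0.069, neither past the spread, and the median level of the 9 genes was 5.81 in place of 5.36 on the log2 scale. These alternatives change only the gene length. The ratio of NFKBIA to NFKBIZ passed the spread with GC correction, at 1.73, and ran from 1.17 to 2.06 when a library was left out, passing only without replicate 1; the cause was not tested. Between 11 and 14 of the 15 ratios were past the spread, against 13. The other ratios past the spread kept their direction and their side of 2 SD under each alternative run, but gene length moved the size of several, as given beside them. With GC correction, tried for this count after seeing the data, 4 of the 9 genes were highest in replicate 1, against 8. Levels of NFKBIA, NFKBIB, BCL3, TNIP1 and TNIP2 moved by more than 1 SD with the principal length, TNIP1 to 8.07 against 7.02 on the log2 scale, and TNFAIP3 moved to 6.66 against 6.51 with the exon length outside other genes. Depth limits none of the 9 genes.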
